A study of Rattus norvegicus with 26 samples.

Results

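Homeostatic microglia genes are transcripts used as markers of resting microglia, the resident macrophages of the central nervous system. Whether each is confined to those cells in this tissue was not tested. The 8 genes followed here were P2ry12, P2ry13, Tmem119, Cx3cr1, Sall1, Gpr34, Csf1r and Olfml3, chosen by symbol from the 32883 genes of the deposited count table, and each symbol matched 1 row, a protein-coding gene. Their identifiers in the table were ENSRNOG00000013902, ENSRNOG00000029756, ENSRNOG00000000700, ENSRNOG00000018509, ENSRNOG00000013907, ENSRNOG00000039759, ENSRNOG00000018414 and ENSRNOG00000019211, in that order. The tissue was the spinal cord of adult female wild-type Sprague-Dawley rats, of about 250 g at postnatal day 70, that carried a clip compression injury at T10 (60 g for 1 min) or no such injury, and 26 libraries in 8 groups were sequenced from 5 mm segments around the lesion. Intact cord (intact or sham rats, n = 4) was compared with injured cord at the subacute stage before any transplant (sub-SCI, n = 3), and with injured cord given human umbilical cord mesenchymal stem cells (+MSC) or saline (+PBS) into the lumbar intrathecal space on day 7 after injury. The transplanted and saline groups were sampled 1, 2 and 4 weeks later, with 3, 3 and 4 libraries for +MSC-1w, +MSC-2w and +MSC-4w and 3, 2 and 4 for +PBS-1w, +PBS-2w and +PBS-4w. Per the methods of the study, rats received the immunosuppressant cyclosporin A daily against rejection, and the groups that received it are not named. Whether the Intact and sub-SCI groups did is not given in the sources used here. The methods of the study call the libraries biological replicates and the labels do not tie them to rats, so p-values below measure the spread between these libraries.

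In healthy cord, microglia survey the tissue through P2Y purine receptors, are held quiet by the neuronal chemokine Cx3cl1 acting on Cx3cr1, and live on Csf1 and Il34 through the receptor Csf1r. Sall1, under TGF-beta signals, is a transcription factor that keeps the resting state. After injury microglia divide and take on a phagocytic program, blood monocytes enter and become macrophages, and resting genes are classically lost while genes such as Apoe, Trem2 and Gpnmb are gained. A segment of tissue holds all these cells at once, so fewer cells of a type and less RNA per cell cannot be told apart in any value below.

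The upstream sequences of members are shown because Spi1 (PU.1), the factor that sets the myeloid program, binds sites with the core GAGGAA, which on the other strand is read as the letters TTCCTC, and because the level of the members after injury is what the comparisons below turn on. RefSeq promoters of the GRCr8 build were found for 5 of the 8 members, and the 250 bases before each start site were searched on both strands. The core was present in 2 of those 5, Gpr34 and Csf1r, against 23.3% of the 33469 promoters of the table. Capitals mark the core, sequences run 5′ to 3′ on the strand of the gene, and 2 promoters with the core and 2 without are given.
Gpr34 (chrX:11785837-11786086, minus strand): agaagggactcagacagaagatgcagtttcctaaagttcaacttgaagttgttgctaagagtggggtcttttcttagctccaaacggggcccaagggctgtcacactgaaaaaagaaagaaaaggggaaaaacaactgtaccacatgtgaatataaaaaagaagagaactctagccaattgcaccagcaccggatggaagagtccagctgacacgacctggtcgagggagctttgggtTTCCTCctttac
Csf1r (chr18:56834129-56834378, plus strand): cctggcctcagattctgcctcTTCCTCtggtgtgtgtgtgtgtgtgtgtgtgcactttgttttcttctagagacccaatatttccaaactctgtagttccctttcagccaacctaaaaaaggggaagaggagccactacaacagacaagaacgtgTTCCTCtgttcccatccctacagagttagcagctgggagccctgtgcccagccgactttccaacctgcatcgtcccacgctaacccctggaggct
P2ry13 (chr2:145622785-145623034, minus strand): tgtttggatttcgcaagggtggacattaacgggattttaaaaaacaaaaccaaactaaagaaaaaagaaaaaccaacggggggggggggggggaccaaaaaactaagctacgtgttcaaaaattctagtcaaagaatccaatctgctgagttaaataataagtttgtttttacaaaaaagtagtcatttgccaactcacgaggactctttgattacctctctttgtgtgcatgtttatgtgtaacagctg
Olfml3 (chr2:193935495-193935744, minus strand): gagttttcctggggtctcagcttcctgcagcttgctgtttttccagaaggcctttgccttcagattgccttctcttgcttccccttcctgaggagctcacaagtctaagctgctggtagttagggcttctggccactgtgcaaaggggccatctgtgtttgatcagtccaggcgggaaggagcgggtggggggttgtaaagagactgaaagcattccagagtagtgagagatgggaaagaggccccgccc
Such a match describes letters in a window and was not measured as binding. In the same annotation P2ry12 and P2ry13 lie inside the span of Med12l, Gpr34 inside that of Cask, and Olfml3 inside that of an uncharacterised gene. Cx3cr1 overlaps LOC134480114 and Sall1 overlaps LOC102553576, without lying inside them. The reads were counted on a different build, Rnor6, and the strand setting is not given in the sources used here. Reads shared with those partners were not separated.

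The libraries held 19496602 to 43468509 counted reads, and 17990 genes with enough reads were tested, all 8 members among them. Member counts were between 124 and 36256 reads per library. The tissue label held, since the summed level of 6 neuron genes in Intact was 5075 to 6299 CPM (counts scaled to a common library size and composition) and that of 6 oligodendrocyte genes 49379 to 55950 CPM. Both sums were lower in every sub-SCI library, with 196 to 995 and 16636 to 34112 CPM, while the sum of 10 pan-myeloid genes went from 137 to 243 CPM in Intact to 2691 to 3138 CPM in sub-SCI. Some libraries stood apart within their groups. Library 1 of +PBS-4w differed most from its group, with a chi-square per degree of freedom over all genes of 155 to 242 against the other 3 libraries, which differed from each other by 25.2 to 36.9. Library 3 of sub-SCI and library 3 of +PBS-1w had the highest fibroblast sums of all 26 (13499 and 7344 CPM over 6 genes), and library 1 of +MSC-4w had the lowest Gpr34 of all injured libraries (15.8 CPM). Left out in turn, the member DEGs against Intact stayed at 3 in +PBS-4w (Gpr34, Csf1r and Olfml3), 5 in sub-SCI and 7 in +PBS-1w, and became 5 in +MSC-4w, where P2ry12 passed at a log2 fold change of 1.03.

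Length-scaled levels (CPM per kilobase) placed Csf1r at the top in Intact cord, with 44.2 ± 7.39 (SD, n = 4). Cx3cr1 followed with 24.8 ± 3.55, Sall1 with 20.7 ± 2.74, P2ry12 with 17.8 ± 4.02, Tmem119 with 13.8 ± 2.31, Gpr34 with 12.03 ± 2.41, Olfml3 with 9.95 ± 3.56 and P2ry13 with 5.07 ± 0.413. The ranges of neighbours in this order overlapped, except that Csf1r lay above Cx3cr1 in every Intact library. In sub-SCI the order became Csf1r (186 ± 28.0, n = 3), Olfml3 (65.7 ± 35.7), Gpr34 (51.9 ± 7.00), Cx3cr1 (51.5 ± 9.87), P2ry12 (30.8 ± 6.16), Tmem119 (24.3 ± 8.30), Sall1 (20.8 ± 5.72) and P2ry13 (11.1 ± 2.57). By rank of the means Gpr34 and Olfml3 moved up and Sall1 moved down, while the mean level of Sall1 stayed close to that in Intact. The rank of Olfml3 came from library 3 (107), since in libraries 1 and 2 (47.9 and 42.3) it lay below Gpr34 and Cx3cr1.

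Injury raised most of the members and lowered none. To ask what the compression did before any transplant, sub-SCI was compared with Intact, and a gene was called a differentially expressed gene (DEG) where the absolute log2 fold change was above 1 and edgeR's quasi-likelihood p, adjusted by Benjamini-Hochberg over all genes tested, was below 0.01. Higher DEGs were 5 of the 8 members (Gpr34, Csf1r, Olfml3, P2ry13 and Cx3cr1), where 16.6% of all genes tested were higher DEGs. P2ry12 and Tmem119 passed an adjusted p of 0.05 but not the fold rule, which made 7 of 8 members higher by that looser rule (30.5% of all genes), and Sall1 passed neither. The median log2 fold change of the members was 1.09, against -0.02 over all genes.

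Gpr34, a lysophosphatidylserine receptor of microglia, measured 14.9, 12.2, 15.6 and 19.8 CPM in the Intact libraries and 75.1, 69.8 and 57.4 CPM in sub-SCI. Every injured library stood above every Intact one, with a log2 fold change of 2.11 (SE 0.303, edgeR adjusted p = 3.83e-06). Csf1r, the growth factor receptor on which microglia depend, measured 143, 170, 178 and 214 CPM in Intact and 798, 808 and 610 CPM in sub-SCI. Its log2 fold change was 2.07 (SE 0.220, edgeR adjusted p = 6.62e-08), close to that of Gpr34.

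P2ry12, the ADP receptor that steers microglial processes to damage, measured 20.8, 16.1, 24.9 and 27.6 CPM in Intact and 46.4, 38.6 and 30.9 CPM in sub-SCI. The groups did not overlap, but the rise was small, with a log2 fold change of 0.79 (SE 0.241, edgeR adjusted p = 0.00733). P2ry13, a related ADP receptor, measured 5.68 to 6.93 CPM in Intact and 16.8, 14.6 and 10.4 CPM in sub-SCI, with a log2 fold change of 1.13 (SE 0.283, edgeR adjusted p = 0.00153). Cx3cr1, the fractalkine receptor, measured 28.9, 30.5, 32.9 and 39.6 CPM in Intact and 65.5, 82.6 and 57.0 CPM in sub-SCI, also without overlap, and its log2 fold change was 1.05 (SE 0.276, edgeR adjusted p = 0.00234). Of the 8 members, 6 did not overlap between the groups and all of those were higher, where 32.9% of all genes tested were higher without overlap. The calls of P2ry13 and Cx3cr1 were narrow: without library 1 of sub-SCI the log2 fold change of P2ry13 was 0.98, and without library 2 that of Cx3cr1 was 0.89, both short of a DEG, while Tmem119 became a DEG at 1.01 without library 1.

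Tmem119, a surface protein used to mark resident microglia, measured 26.7, 30.1, 26.2 and 37.1 CPM in Intact and 36.8, 72.2 and 48.7 CPM in sub-SCI. Its lowest injured library lay just under the highest Intact one, and its log2 fold change was 0.81 (SE 0.233, edgeR adjusted p = 0.00491). Sall1 measured 92.5, 110, 102 and 126 CPM in Intact and 132, 117 and 74.7 CPM in sub-SCI. The groups of Sall1 overlapped and the fitted log2 fold change was 0.01 (SE 0.191, edgeR adjusted p = 0.977). Some other neural cells can express Sall1 too, and 3 of 6 astrocyte markers were lower DEGs in the same comparison while the other 3 were not called. The summed level of the 6 was 6679 to 8349 CPM in Intact and 4914 to 9528 CPM in sub-SCI, and its part in the Sall1 level was not tested.

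Olfml3, a secreted matrix protein, had the largest rise of the members and the widest spread. It measured 8.62, 21.0, 22.6 and 17.7 CPM in Intact and 84.3, 74.3 and 188 CPM in sub-SCI. The log2 fold change was 2.72 (SE 0.453, edgeR adjusted p = 2.34e-05), and library 3, the highest, was also the library with the highest fibroblast sum and the lowest values of P2ry12, P2ry13, Sall1, Gpr34, Csf1r and Cx3cr1 in its group. The part of fibroblasts in the Olfml3 values was not tested.

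**Figure D1:**
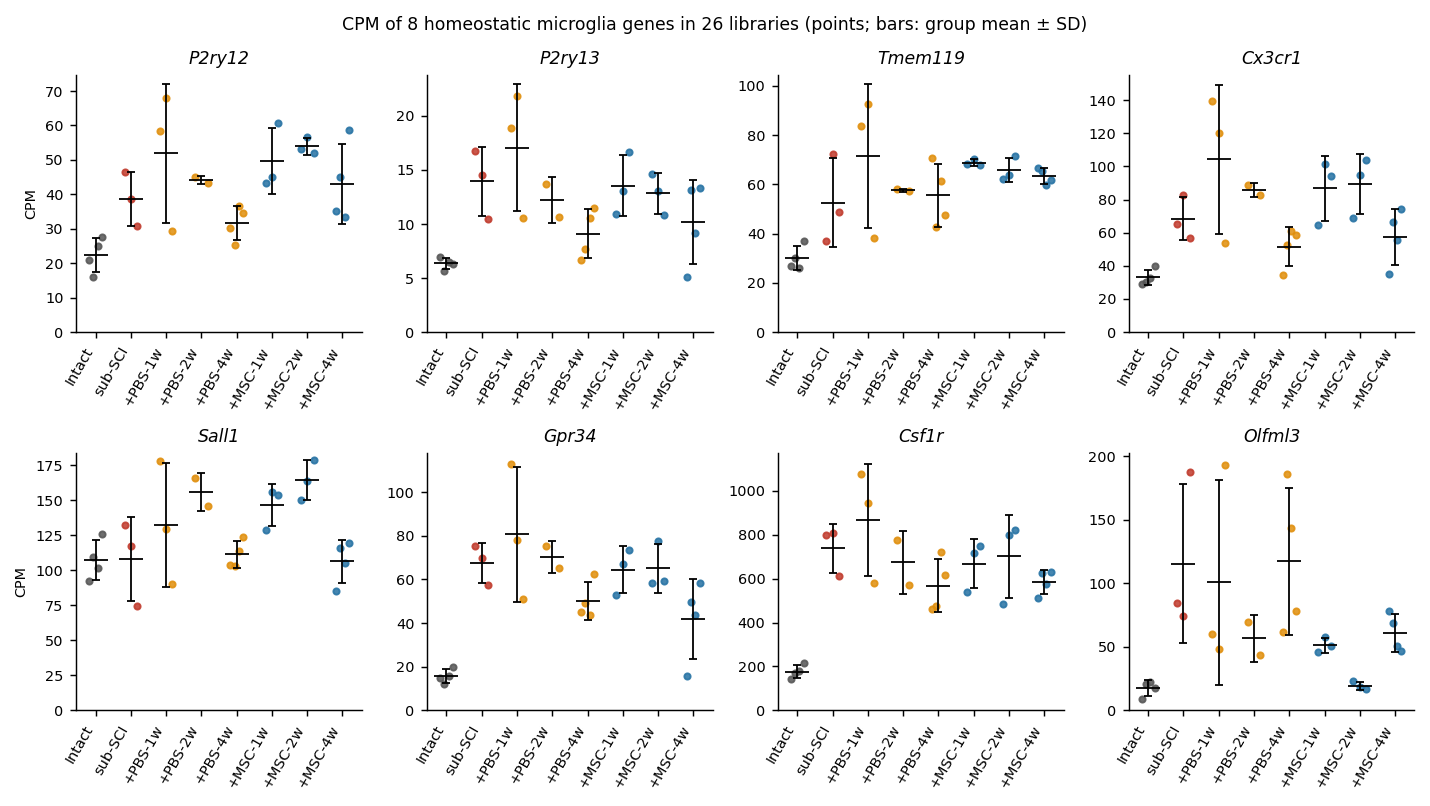
CPM of each member (vertical axis, linear, from 0) in the 26 libraries by group, with the group mean and SD as bars (n = 2 to 4). Every injured library but 1 stood above Intact for Gpr34 and every one did for Csf1r, the Sall1 libraries of sub-SCI (74.7 to 132 CPM) lay on both sides of Intact, and the highest Olfml3 library reached 193 CPM.

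The time after injury was then followed in the saline groups. At 1 week, 7 of the 8 members were higher DEGs (all but Sall1), where 13.5% of all genes tested were. At 2 weeks there were 4 (Cx3cr1, Gpr34, Csf1r and Olfml3; 8.84% of all genes) and at 4 weeks 3 (Gpr34, Csf1r and Olfml3; 13.3% of all genes). The 3 comparisons share the Intact libraries, and +PBS-2w holds only 2 libraries; without its library 1 the count there was 2. The call of Olfml3 at 2 weeks (edgeR adjusted p = 0.00962) was lost in 19 of 26 fits that each left out 1 library, at log2 fold changes of 1.34 to 1.99. By ranges, 7, 8 and 4 members lay above all Intact libraries at 1, 2 and 4 weeks, where 28.5%, 31.1% and 22.4% of all genes did, and at 4 weeks 5 members passed an adjusted p of 0.05 in the higher direction (28.6% of all genes).

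The P2Y receptors and Cx3cr1 were highest on average at 1 week. P2ry12 measured 58.5, 67.9 and 29.3 CPM in +PBS-1w, 44.9 and 43.4 CPM in +PBS-2w, and 30.3, 25.3, 36.6 and 34.6 CPM in +PBS-4w. Its log2 fold change against Intact was 1.21 (SE 0.241) at 1 week, 0.98 (SE 0.267) at 2 weeks and 0.50 (SE 0.226) at 4 weeks, with edgeR adjusted p-values of 0.000238, 0.00691 and 0.0678. P2ry13 went from 1.43 at 1 week to 0.52 at 4 weeks and Cx3cr1 from 1.66 to 0.65 on the same scale. By 4 weeks the libraries of P2ry12, P2ry13 and Cx3cr1 overlapped with Intact. In +PBS-4w against sub-SCI, edgeR called 0 members by either rule, as did DESeq2 for DEGs, and 1 member had an unadjusted p below 0.05 (4.28% of all genes were higher and 3.09% lower DEGs, and 13.4% and 11.6% passed the adjusted p of 0.05 alone). That member, P2ry13, had the lowest log2 fold change, -0.62 (SE 0.281, edgeR adjusted p = 0.114).

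Gpr34 and Csf1r were also highest on average at 1 week, at log2 fold changes of 2.37 (SE 0.305) and 2.30 (SE 0.221), and were still DEGs at 4 weeks. Gpr34 measured 45.2, 49.1, 43.6 and 62.6 CPM in +PBS-4w, at a log2 fold change of 1.68 (SE 0.287, edgeR adjusted p = 5.23e-05) against Intact. Csf1r measured 460, 477, 719 and 618 CPM, at 1.69 (SE 0.208, edgeR adjusted p = 1.02e-06). No library of either gene came down to the Intact range. Tmem119 lay between, with 70.7, 42.7, 61.3 and 47.6 CPM at 4 weeks, and a log2 fold change of 0.89 (SE 0.219, edgeR adjusted p = 0.00185), which passed the adjusted p but not the fold rule.

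Sall1 measured 178, 129 and 90.0 CPM in +PBS-1w and 166 and 146 CPM in +PBS-2w, where the mean was highest and both libraries lay above all Intact ones. At 4 weeks it measured 104, 103, 114 and 124 CPM. None of the 3 saline groups passed a rule for it (edgeR adjusted p = 0.19, 0.0531 and 0.835). Olfml3 remained variable, with 60.3, 48.4 and 193 CPM at 1 week and 61.3, 186, 143 and 77.8 CPM at 4 weeks, and its highest library at 1 week was library 3, the one with the high fibroblast sum.

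Most members rose far less than the genes listed as pan-myeloid. In sub-SCI all 10 pan-myeloid genes and 14 of 15 activated microglia genes were higher DEGs, with median log2 fold changes of 3.69 and 3.57, against 1.09 for the members. Cd68, a lysosomal protein of phagocytes, went from a mean of 3.77 to 646 CPM (log2 fold change 7.41, SE 0.403, edgeR adjusted p = 8.42e-12). Gpnmb, a glycoprotein of lipid-laden phagocytes, went from 25.3 to 6082 CPM (7.91, SE 0.414, edgeR adjusted p = 6.11e-12). Ctsb and Cd63, of the lysosome, rose by 3.60 and 3.24 on the log2 scale. Every pan-myeloid gene rose more than 7 of the members, since the smallest of the 10 log2 fold changes, that of Itgam, was 2.70 and only Olfml3 exceeded it at 2.72.

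**Figure D2:**
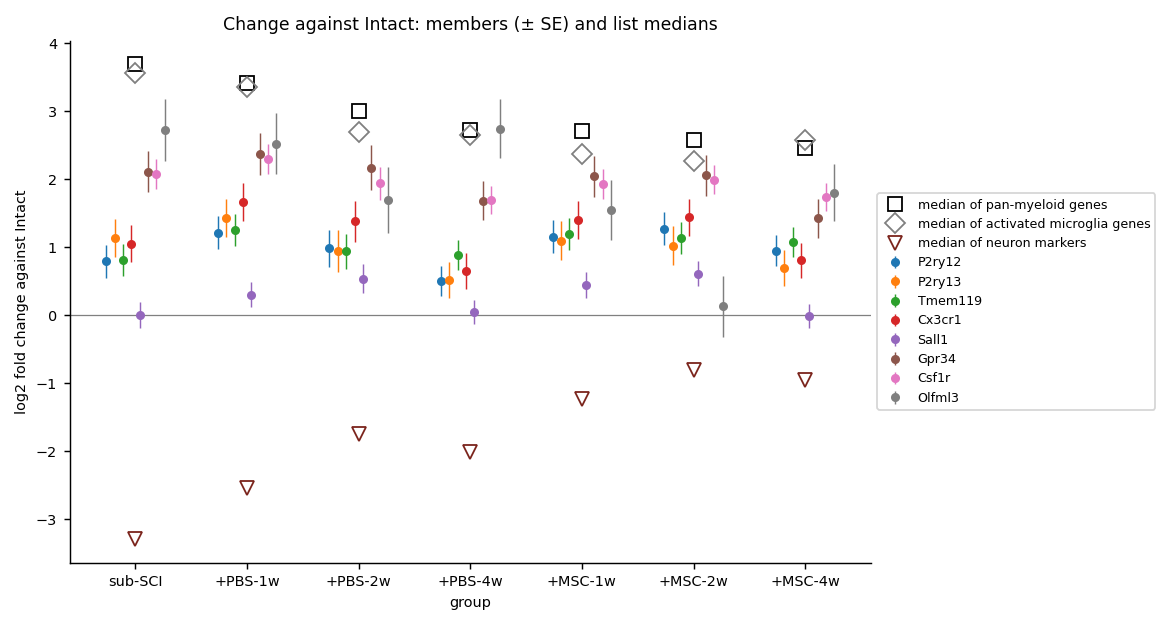
Log2 fold change against Intact (vertical axis) of each member with its SE in the 7 injured groups, with the medians of the pan-myeloid, activated microglia and neuron lists as open symbols. Members lay below the pan-myeloid median and above the neuron median in all 7 groups, except that Olfml3 in +PBS-4w (2.74) lay just above the pan-myeloid median (2.72).

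Set against 4 genes shared by microglia and infiltrating macrophages (Aif1, Itgam, Ptprc and Spi1), P2ry12, P2ry13, Tmem119, Cx3cr1, Sall1 and Csf1r made up a smaller part in every injured library than in any Intact one, and Gpr34 and Olfml3 did so in some groups only. P2ry12 reads were 32.2% ± 7.73 (SD, n = 4) of the summed reads of the 4 genes in Intact and 5.54% ± 1.25 (n = 3) in sub-SCI. The saline groups held 8.30% ± 3.16 (n = 3), 10.2% ± 2.47 (n = 2) and 8.75% ± 0.700 (n = 4) at 1, 2 and 4 weeks. No injured library reached the lowest Intact one, at 22.6%. Tmem119 went from 43.1% ± 6.87 to 7.41% ± 2.03, Cx3cr1 from 47.3% ± 6.49 to 9.71% ± 1.29, Sall1 from 154% ± 19.7 to 15.4% ± 4.40 and Csf1r from 251% ± 20.7 to 105% ± 14.99. Csf1r followed Itgam, which is in the denominator, over the 26 libraries (Pearson's r of log2 CPM 0.98). Which cells carried the Csf1r reads was not tested. Gpr34 went from 22.5% ± 5.05 to 9.65% ± 1.45 in sub-SCI and overlapped with Intact in +PBS-2w, +PBS-4w, +MSC-1w and +MSC-2w. Olfml3 overlapped in sub-SCI, +PBS-1w, +PBS-4w and +MSC-4w, and in +PBS-4w its mean share was higher, 34.0% ± 21.5 (n = 4) against 24.4% ± 7.20 in Intact. Without overlap with Intact were 7 of the 8 members in sub-SCI, all lower, but 89.6% of all genes tested were lower in this way. In the other injured groups, 82.4% (+PBS-4w) to 89.4% (+PBS-2w) of all genes were. The summed denominator reads were 930 to 2381 in Intact and 20059 to 22960 in sub-SCI. Lying below Intact on this scale thus says nothing particular about the members in any injured group. P2ry12 relative to Aif1 alone was 125% ± 37.3 in Intact and 16.9% ± 1.93 in sub-SCI, with Aif1 itself at 15.3 to 20.9 CPM and 205 to 245 CPM.

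**Figure D3:**
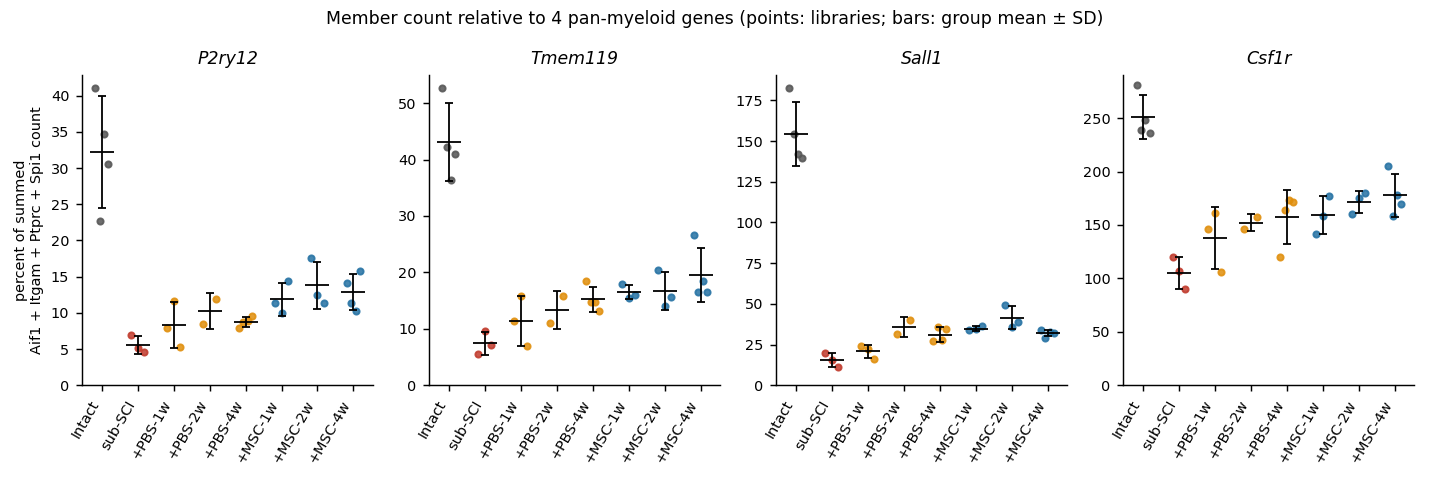
Reads of P2ry12, Tmem119, Sall1 and Csf1r as a percentage of the summed reads of Aif1, Itgam, Ptprc and Spi1 (vertical axes from 0) per library, with group mean and SD. All injured libraries lay below all Intact libraries for the 4 genes. In each injured group the same held for 82.4% to 89.6% of all genes tested.

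The partners of the members moved as follows in sub-SCI. Of 9 genes around Csf1r, 6 were higher DEGs, led by the myeloid factors Cebpa (log2 fold change 4.01, SE 0.200) and Spi1 (3.74, SE 0.239) and the adaptor Tyrobp (4.45, SE 0.280). The ligands, named for their role, were not DEGs. Csf1 had a log2 fold change of 0.77 (SE 0.133, edgeR adjusted p = 3.75e-05), and Il34 one of -0.78 (SE 0.223, edgeR adjusted p = 0.00453). Of 4 genes of the fractalkine axis, the proteases Ctss (1.84, SE 0.205) and Adam17 (1.37, SE 0.179) were higher DEGs, and the ligand Cx3cl1 was lower at a log2 fold change of -0.90 (SE 0.141, edgeR adjusted p = 1.13e-05), past the adjusted p but not the fold rule.

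Of 10 purinergic genes tested, 6 were higher DEGs, including the potassium channel Kcnk13, which sets the process movement of microglia (log2 fold change 2.75, SE 0.216), the UDP receptor P2ry6, linked to phagocytosis (2.75, SE 0.238), and the ATP channel P2rx4 (2.56, SE 0.223). Each of these 3 was above the 0.79 of P2ry12 and the 1.13 of P2ry13. They were named as the list's higher DEGs with the smallest adjusted p, so that order follows at least in part from the choice. Of 12 genes of the TGF-beta axis, 7 were higher DEGs and 1 lower. Tgfb1 rose by 3.19 (SE 0.203), its receptor Tgfbr1 by 2.99 (SE 0.217) and Nrros, which presents TGF-beta on microglia, by 3.33 (SE 0.296) on the log2 scale, and Itgb8, the integrin that frees TGF-beta, fell by 1.83 (SE 0.439, edgeR adjusted p = 0.00109). Among 17 other genes used for microglia, 7 were higher DEGs, Vsir (1.57, SE 0.138) among them, and Crybb1 was the lower DEG (-1.44, SE 0.352).

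The 3 P2Y neighbours tested within the Med12l locus did not move together. P2ry14 (log2 fold change 1.68, SE 0.343) and Gpr171 (1.905, SE 0.527) were higher DEGs in sub-SCI at levels of at most 2.49 CPM on average. Med12l, which encloses P2ry12 and P2ry13, fell from 47.9 to 12.1 CPM on average (-1.99, SE 0.316, edgeR adjusted p = 1.32e-05), the reverse direction to both members.

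Genes of cell division, which dividing cells of any type can carry, and genes of other cell types changed as well. All 5 cell division genes (Ccnb1, Birc5 and Cdk1 first, at log2 fold changes of 3.16, 3.26 and 4.45) and all 6 fibroblast genes (Postn 5.06, Col1a1 4.38, Col1a2 3.96) were higher DEGs in sub-SCI, as were 7 of 8 genes of infiltrating and border macrophages (Msr1 5.70, Mrc1 4.19, Arg1 2.06). Neuron markers fell in all 6 of 6 genes (Slc12a5 -3.78, Rbfox3 -3.40, Syt1 -2.71), and 4 of 6 oligodendrocyte markers were lower DEGs (Mobp -2.03 and Mog -1.41 among them). The 3 lower astrocyte DEGs were Slc1a2 (-3.03), Aqp4 (-1.46) and Aldh1l1 (-1.21), while Gfap (0.34, SE 0.279), Gja1 (0.14, SE 0.149) and Slc1a3 (-0.28, SE 0.157) passed no rule, with edgeR adjusted p-values of 0.308, 0.413 and 0.13. Of 4 endothelial genes Cdh5 was the higher DEG (2.05), and of 5 lymphocyte genes, 4 were higher DEGs, led by Cd8a, which went from 0.312 to 168 CPM on average, Cd3e (5.35) and Cd4 (2.20). None of 6 neutrophil genes passed a rule. The part of these other cells in the levels of the members was not tested.

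The effect of transplantation was asked by comparing +MSC with +PBS at each week, and edgeR called 0 members at 1, 2 or 4 weeks. At an unadjusted p below 0.05 there were 0, 1 and 1 members, Olfml3 in each case, and DESeq2 on the 2 groups alone called 0, 1 and 0, again Olfml3, where over all genes it called 230 higher and 114 lower, 80 higher and 338 lower, and 234 higher and 17 lower. For the change of the +MSC against +PBS difference from 1 to 4 weeks, edgeR called 0 members, as it did 0% of all genes, with 0 members at an unadjusted p below 0.05 and 0 by DESeq2. Across all genes, 0.0111%, 0% and 0% were lower DEGs by edgeR and 0%, 0% and 0.495% higher ones. At 1 week the log2 fold changes of P2ry12, P2ry13, Tmem119, Cx3cr1, Gpr34 and Csf1r lay between -0.37 and -0.06, at 2 weeks between -0.11 and 0.29 and at 4 weeks between -0.26 and 0.44. Their SEs were 0.202 to 0.355. P2ry12 at 4 weeks measured 35.2, 45.0, 33.3 and 58.8 CPM with the cells and 30.3, 25.3, 36.6 and 34.6 CPM with saline. The groups overlapped and the log2 fold change was 0.44 (SE 0.224, edgeR adjusted p = 0.243).

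Against Intact, +MSC-1w had 6 higher DEGs among the members (7.87% of all genes), +MSC-2w 5 (5.6%) and +MSC-4w 4 (7.25%), next to 7, 4 and 3 in the saline groups, with the Intact libraries shared by all. P2ry12 was 1.15 (SE 0.241), 1.27 (SE 0.241) and 0.94 (SE 0.226) above Intact on the log2 scale with cells and 1.21, 0.98 and 0.50 with saline at 1, 2 and 4 weeks. Tmem119 was 1.20, 1.13 and 1.08 with cells and 1.25, 0.94 and 0.89 with saline. Gpr34 was 2.04, 2.06 and 1.42 with cells and 2.37, 2.17 and 1.68 with saline, and its low library in +MSC-4w, at 15.8 CPM, lay inside the Intact range while the other 3 measured 49.8, 43.5 and 58.2 CPM. Sall1 in +MSC-2w, with 150, 164 and 179 CPM, was above Intact at a log2 fold change of 0.61 (SE 0.190, edgeR adjusted p = 0.0273), past the adjusted p only.

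Olfml3 was the one member that fell with the cells when the weeks were averaged. In +MSC-2w it measured 22.7, 18.1 and 16.5 CPM, next to 8.62 to 22.6 CPM in Intact, against 69.5 and 43.5 CPM in +PBS-2w. The +MSC-2w and +PBS-2w libraries did not overlap, as for 18.4% of all genes in that direction. P2ry12 and Tmem119 lay above +PBS-2w without overlap, as did 18.6% of all genes. The log2 fold changes at 1, 2 and 4 weeks were -0.97 (SE 0.474), -1.56 (SE 0.524) and -0.94 (SE 0.410), with edgeR adjusted p-values of 0.286, 0.276 and 0.175. The mean of the 3 weeks was -1.16 (SE 0.272, edgeR adjusted p = 0.00542), a lower DEG, as were 0.956% of all genes. The other 7 members were between -0.23 and 0.22 in this average, and their edgeR adjusted p-values were 0.299 or more.

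Fibroblast sums were also lower with the cells at 1 and 2 weeks. The mean Olfml3 change stayed below 0 whichever 1 library was left out (-1.27 to -0.86), but it was not a DEG in every such fit. The sum over Col1a1, Col1a2, Col3a1, Dcn, Lum and Postn was 258 to 641 CPM in +MSC-2w and 1114 to 1650 CPM in +PBS-2w, 1540 to 2475 against 3209 to 7344 CPM at 1 week and 409 to 1896 against 923 to 3525 CPM at 4 weeks. Olfml3 itself overlapped at 1 week, where the sums did not, with 45.5, 57.3 and 50.9 CPM in +MSC-1w and 60.3, 48.4 and 193 CPM in +PBS-1w. All 6 fibroblast genes were lower in the mean of 3 weeks at an adjusted p below 0.05, with a median log2 fold change of -1.29, while none was a DEG. Without library 3 of +PBS-1w the mean change of Olfml3 was -0.86 (edgeR adjusted p = 0.017), and it stopped being a DEG in 7 other fits that each left out 1 library (+MSC-1w libraries 1 and 3, +MSC-2w libraries 2 and 3, +MSC-4w library 4, +PBS-2w library 1, +PBS-4w library 2), at -1.16 to -1.05. The part of fibroblasts in this change was not tested.

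**Figure D4:**
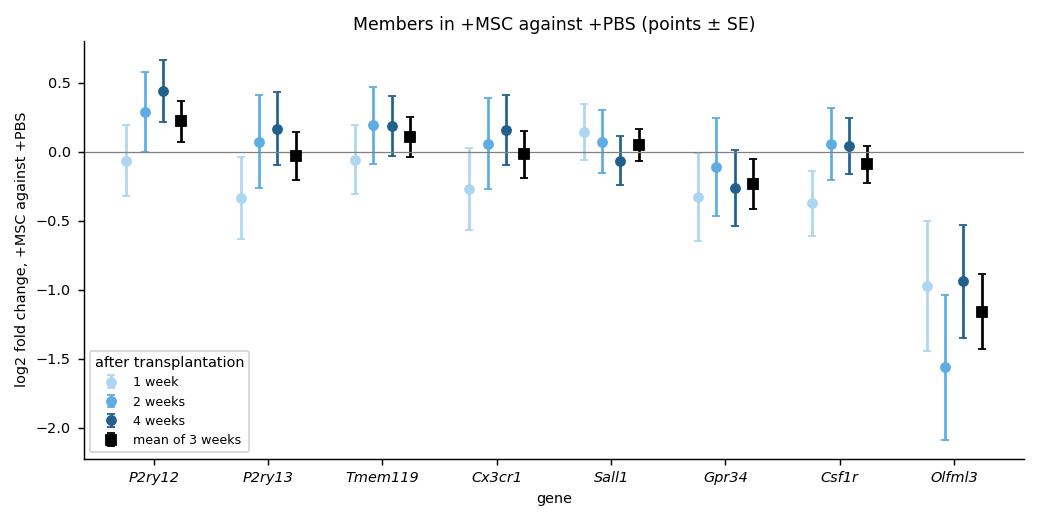
Log2 fold change of each member in +MSC against +PBS (vertical axis) with its SE at 1, 2 and 4 weeks and for the mean of the 3 weeks. Olfml3 was below 0 at each week, at -0.97, -1.56 and -0.94, and the other members lay between -0.37 and 0.44.

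P2ry12 relative to Aif1 was compared separately, to ask whether the resting marker was higher per myeloid read with the cells. The ratio was 47.3% ± 3.68, 54.1% ± 1.45 and 51.9% ± 7.06 in +MSC-1w, +MSC-2w and +MSC-4w and 28.7% ± 12.2, 44.5% ± 16.1 and 39.0% ± 13.4 in +PBS-1w, +PBS-2w and +PBS-4w (SD, n = 3, 3, 4 and 3, 2, 4). The +MSC libraries held 44.2% to 60.5% and the +PBS libraries 17.8% to 55.9%. The mean log2 difference over the weeks was 0.54 (two-sided exact permutation within weeks, p = 0.00314, smallest possible 7.14e-05). By week it was 0.81 (exact permutation p = 0.1, the smallest possible with 3 against 3), 0.33 (exact permutation p = 0.4) and 0.48 (exact permutation p = 0.143). Without the libraries numbered 1 it was 0.31 (exact permutation p = 0.133). The same test passed in the higher direction for 27.4% of the 16588 genes with reads in every library, and 23.6% of genes had a larger difference than P2ry12, and Aif1 itself had a log2 fold change of -0.35 (SE 0.147, edgeR adjusted p = 0.0935) with the cells, so the ratio does not set P2ry12 apart from other genes.

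Over the 26 libraries, Pearson's r of log2 CPM among members was 0.46 to 0.90 for the 21 pairs without Olfml3 and -0.34 to 0.51 for the 7 pairs with it, a description over libraries that share groups. After each group's mean was removed, r was 0.18 to 0.84 without Olfml3 and -0.53 to -0.27 with it.

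Outside the list, the genes most like P2ry12 over the 26 libraries were Golm1 (r = 0.88), AABR07035839.1 (0.85), Slco2b1 (0.84), Cd244 (0.84) and Pou2f2 (0.83). The nearest gene was Pde3b for P2ry13 (r = 0.89), Fam169b for Tmem119 (0.90), AABR07035839.1 for Cx3cr1 (0.95), Icam5 for Sall1 (0.82), Cd180 for Gpr34 (0.96) and Rasal3 for Csf1r (0.98). For Olfml3 it was Pawr (0.97).

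**Figure D5:**
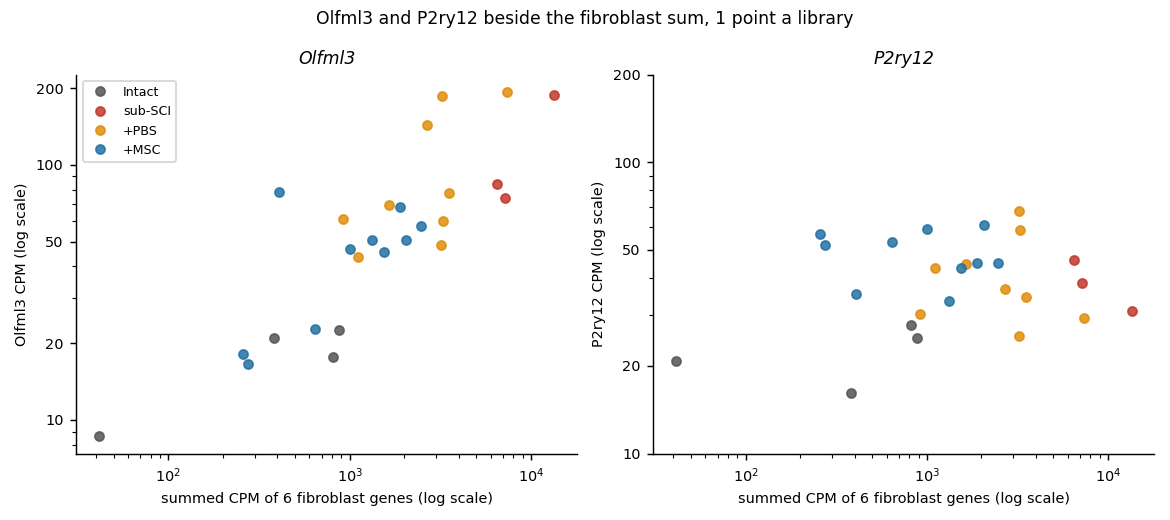
CPM of Olfml3 (left) and P2ry12 (right) against the summed CPM of 6 fibroblast genes, 1 point a library, all axes logarithmic. The highest Olfml3 values (186 to 193 CPM) came from libraries with fibroblast sums of 3244 to 13499 CPM, and P2ry12 in those 3 libraries was 25.3 to 30.9 CPM. Other libraries with sums of that order were lower in Olfml3. Libraries 1 and 2 of +PBS-1w (sums of 3209 to 3268 CPM) held 60.3 and 48.4 CPM of Olfml3 and 58.5 and 67.9 CPM of P2ry12. Libraries 1 and 2 of sub-SCI (sums of 6531 to 7162 CPM) held 84.3 and 74.3 CPM of Olfml3 and 46.4 and 38.6 CPM of P2ry12.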

How the data were processed

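Poly(A) RNA of rat spinal cord segments was sequenced as 150 bp paired reads. Per the methods of the study, the authors trimmed reads with Trim Galore 0.5.0, removed reads that aligned to human GRCh38, aligned the rest to Rnor6 with HISAT2 2.1.0, filtered for properly paired alignments (SAMtools 1.9), and assigned those to genes using featureCounts 1.6.4. The deposited values are raw counts per gene, and the joint table equalled the 26 single-library files. The annotation release and the strand setting are not given in the sources used here. The labels, which give 3 libraries for +MSC-2w and 2 for +PBS-2w, set the groups.

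Genes with too few reads for their group size (edgeR's filter) were left out, TMM factors were computed, and 1 model over all 8 groups was fitted with edgeR 4.0.16 (R 4.3.3, limma 3.58.1) and its quasi-likelihood test. Adjustment was by Benjamini-Hochberg over the 17990 genes tested, and genes past 1 on the log2 scale in either direction with an adjusted p below 0.01 were called DEGs. The scripts were tested on simulated data. Library totals were 19496602 to 43468509 counts. No 2 replicates were alike within sampling noise (smallest chi-square per degree of freedom 5.48). Ratios between genes used raw counts and two-sided exact permutation tests within weeks, and their paired alternative used an exact sign-flip test.

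The members and the other gene lists were chosen with earlier results of these data known. Named were all 8 members, up to 3 higher and 3 lower DEGs of each list with the smallest adjusted p in sub-SCI, and the genes closest to a member by correlation; Csf1, Il34 and Cx3cl1 were added as ligands, and Gfap, Gja1 and Slc1a3 to complete the astrocyte list, after their values were seen. Of 142 listed genes 138 were in the table. Some genes that the rule names are not reported here. Alternatives were DESeq2 1.42.0, its size factors, fits on 2 groups, other filters, a replicate block, a term for or removal of the libraries numbered 1, and leaving out each library.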

Additional observations from a re-analysis of the deposited data

Results flagged for a closer look

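Csf1r in +PBS-4w had 1 library far from the other 3 of its group. As a percentage of the summed Aif1, Itgam, Ptprc and Spi1 reads, library 1 held 120% (119.678) and the others 164% to 174%. The gap was 0.832 of the range, where 0.829 is Dixon's limit for 4 samples. The test was run on 48 sets of values, each a member in 1 group of 4 libraries by CPM or by this percentage. Groups with fewer libraries were not tested. This set was the 1 that passed, and chance passes about 1 in 20, so the flag is no more than chance would give.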

How the results depend on the processing

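Of the values recomputed under the alternatives, 3898 were taken as kept, 94 changed sign, 47 lost a call, 30 gained one and 13 counts moved. A fold change or ratio was taken as kept with the same direction and the same side of its threshold. A count of called members was taken as kept if both counts were 0 or within 1.5 times of each other, so single calls could differ. DESeq2 on the 2 groups alone called 1 member in +MSC-2w against +PBS-2w (Olfml3). In the libraries other than replicate 1, 2 members were called in +PBS-2w against Intact, 3 in +MSC-2w against Intact and 0 in the mean of 3 weeks, and the P2ry12 to Aif1 log2 difference was 0.31. With 1 library left out, member counts ran from 4 to 5 in sub-SCI, 6 to 7 in +PBS-1w, 2 to 5 in +PBS-2w, 3 to 4 in +PBS-4w, 4 to 7 in +MSC-1w, 5 to 6 in +MSC-2w, 3 to 5 in +MSC-4w and 0 to 1 in the mean of 3 weeks, and the P2ry12 to Aif1 difference from 0.41 to 0.67. The call of Olfml3 in +PBS-2w was lost in 19 such fits. A lone library left in a group was assumed to vary like the others. The causes were not tested.
Values that changed sign were uncalled in each case (log2 scale). Under DESeq2 on all libraries, the values were Olfml3 -0.0082 in +PBS-4w against sub-SCI. Under DESeq2 on the 2 groups only, these were Sall1 0.011 in +MSC-4w against Intact. Under edgeR on the 2 groups only, these were Sall1 0.020 in +MSC-4w against Intact, Olfml3 -0.011 in +PBS-4w against sub-SCI. Under median-of-ratios size factors, the values were Olfml3 -0.0076 in +PBS-4w against sub-SCI. Under no filter on low counts, these were Sall1 0.024 in +MSC-4w against Intact, Sall1 -0.0019, Olfml3 -0.012 in +PBS-4w against sub-SCI. Under at least 10 counts in every library, these were Sall1 0.0086 in +MSC-4w against Intact. Under the replicate block, the values were Sall1 -0.0092 in +PBS-4w against sub-SCI, Olfml3 -0.027 in the change of the +MSC against +PBS difference from 1 to 4 weeks. Under a term for replicate 1, these were Cx3cr1 -0.018 in +MSC-2w against +PBS-2w, Olfml3 -0.017 in +PBS-4w against sub-SCI. In the libraries other than replicate 1, these were Sall1 -0.18 in sub-SCI against Intact, Sall1 -0.0044 in +PBS-1w against Intact, P2ry12 0.11, Tmem119 0.067, Cx3cr1 0.16, Gpr34 0.12 in +MSC-1w against +PBS-1w, Gpr34 0.065 in +MSC-2w against +PBS-2w, Sall1 0.0047 in +MSC-4w against +PBS-4w, Olfml3 -0.23 in +MSC-2w against Intact, Sall1 0.027 in +MSC-4w against Intact, P2ry13 0.097, Cx3cr1 0.20, Gpr34 0.051, Csf1r 0.15 in +MSC against +PBS, mean of 3 weeks, Tmem119 -0.30 in +PBS-4w against sub-SCI, Gpr34 -0.14, Olfml3 -0.13 in the change of the +MSC against +PBS difference from 1 to 4 weeks. With 1 library left out, Sall1 -0.16 to 0.21 crossed 0 in sub-SCI against Intact. In +PBS-4w against Intact, the ranges were Sall1 -0.0066 to 0.14. In +MSC-1w against +PBS-1w, the ranges were P2ry12 -0.35 to 0.18, Tmem119 -0.36 to 0.18, Sall1 -0.072 to 0.42. In +MSC-2w against +PBS-2w, the ranges were P2ry13 -0.097 to 0.27, Cx3cr1 -0.067 to 0.21, Sall1 -0.014 to 0.18, Gpr34 -0.26 to 0.010, Csf1r -0.15 to 0.31. In +MSC-4w against +PBS-4w, the ranges were Cx3cr1 -0.018 to 0.34, Sall1 -0.12 to 0.030, Gpr34 -0.46 to 0.012, Csf1r -0.073 to 0.18. In +MSC-2w against Intact, the ranges were Olfml3 -0.067 to 0.27. In +MSC-4w against Intact, the ranges were Sall1 -0.074 to 0.079. In +MSC against +PBS, mean of 3 weeks, the ranges were P2ry13 -0.11 to 0.043, Cx3cr1 -0.12 to 0.072, Sall1 -0.020 to 0.14. In +PBS-4w against sub-SCI, the ranges were Tmem119 -0.12 to 0.38, Sall1 -0.16 to 0.21, Olfml3 -0.30 to 0.56. In the change of the +MSC against +PBS difference from 1 to 4 weeks, the ranges were Sall1 -0.48 to 0.0089, Gpr34 -0.26 to 0.34, Olfml3 -0.86 to 0.37. Over all genes, the count of DEGs differed by over 1.5 times from the main one in some settings (higher and lower, main 0 and 2, 0 and 0, 89 and 0 for +MSC against +PBS at 1, 2 and 4 weeks). With DESeq2 fitted to every library these became 28 with 40 at 1 week, 3 with 22 at 2 weeks and 294 with 13 at 4 weeks, and fitted to the 2 groups only, 230 with 114, 80 with 338 and 234 with 17. edgeR on the 2 groups only gave 0 and 0 at 1 and 4 weeks, and 51 and 184 in place of 770 and 555 in +PBS-4w against sub-SCI. The replicate block gave 0 and 4 at 1 week. The libraries other than replicate 1 gave 34 and 123 in place of 290 and 172 in the mean of 3 weeks and 928 and 159 in place of 1591 and 1019 in +PBS-2w against Intact. The change from 1 to 4 weeks had 0 and 1 by DESeq2 in place of 0 and 0.
The main model did not use the replicate numbers as pairs. Deviations from group means correlated above 0.1 in 18 of 28 pairs numbered 1 and in 5 of 28, 7 of 21 and 1 of 3 of those numbered 2, 3 and 4. The median r was 0.17 for pairs numbered 1 (-0.15 to 0.45) and 0.01 for those numbered 2. What the libraries numbered 1 share was not tested. With a replicate block, 5 members were called in +PBS-2w against Intact, and no other member count changed. For the ratio, +MSC and +PBS libraries of the same week and number were paired, which left out library 3 of +MSC-2w. The P2ry12 to Aif1 difference was then 0.55 (exact two-sided sign-flip test over the pairs, p = 0.0273).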
